A study of Homo sapiens with 12 samples.

Results

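The BCL2 family decides whether a mitochondrion releases cytochrome c and so whether a stressed cell enters apoptosis. Its antiapoptotic members (BCL2, BCL2L1, whose main product is BCL-XL, and MCL1) bind and hold back the effectors BAX and BAK1, which otherwise form pores in the outer mitochondrial membrane. The BH3-only members (BID, BIK, BBC3, also called PUMA, BCL2L11, also called BIM, and BAD) sense damage and tip this balance towards the effectors, and in lung cancer the balance is known for its bearing on the response to platinum drugs and to kinase inhibitors. Probes were chosen by name: every non-control probe that the scanner files list under 1 of these 10 genes was taken, which gave 10 of the 36337 gene names and 16 of the 50599 probes on the arrays. BCL2L11 had 3 probes, BCL2, BAX, BID and BAD had 2 each, and the other members had 1. All 16 probes were well above background on all 12 arrays, so each of them entered every test.

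RNA came from cultures of 3 human lines of lung adenocarcinoma. A549 and PC14 were studied with PC14CDDP, which the study sets against PC14 as its parental line (CDDP abbreviates cisplatin). Cells of each line were transfected at 25 nM with pre-miR-197, a synthetic precursor that supplies the miRNA miR-197, with NC, a negative control oligonucleotide, with LNA-miR-197, a locked nucleic acid that blocks the miRNA, or with LNA-NC, its control. The labels name NC as AllStar-NC and LNA-NC as LNA-miR-NC. They do not say whether AllStar-NC is the same kind of oligonucleotide as pre-miR-197, so a difference in kind cannot be told apart from the miRNA. All groups thus carried a transfected oligonucleotide, none was an untreated culture, and each group of 4 transfections had 1 array in each of the 3 lines. The labels name no age, time point or drug exposure for the cells. A level is given below on the log2 scale, as the processed signal relative to the 75th percentile of its own array, so that 0 is the level of a fairly bright probe. Levels of different probes are not compared as amounts of mRNA, since probes differ in how strongly they bind. Where a probe is called brighter or dimmer, only its signal is meant.

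The miRNA that the transfections address has 2 mature products, printed from RefSeq (GRCh38.p14) with the seed, bases 2 to 8, in capitals, because the seed is what pairs with a target mRNA. Both lie on the plus strand of chromosome 1, the first at chr1:109598940-109598961 and the second at chr1:109598901-109598923.
hsa-miR-197-3p: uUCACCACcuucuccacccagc
hsa-miR-197-5p: cGGGUAGAgagggcagugggagg
No level of the miRNA itself was measured, since 0 probes carried the name MIR197. The letters that would pair with the seed of miR-197-3p, GTGGTGA, stood in 258 of the 50599 probe sequences (0.51%) and in 0 of the 16 family probes. Probes cover only a short stretch of each transcript, and nothing follows from their absence there about the rest of the mRNA.

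The 75th percentile of the arrays lay between 613.5 and 714.6 signal units, and 55.8% to 63.1% of probes were well above background. The PC14CDDP array with LNA-miR-197 had the lowest value of both. PC14CDDP had the lowest share, 55.8% to 59.5%. The epithelial keratins KRT8, KRT18 and KRT19 were above background on all 12 arrays. EPCAM and CDH1 were so on all 4 A549 arrays and on 0 of 4 PC14CDDP arrays. In PC14 they were so on 3 and 2 of 4 arrays, at low mean levels of -5.27 and -5.62. NKX2-1, a lung lineage factor, was above background on all 8 PC14 and PC14CDDP arrays and on 0 of 4 A549 arrays, and SFTPB on none of the 12. NAPSA, another lung marker, was above background on all 12 and had its highest mean level in A549 (-2.82, against -4.43 in PC14 and -5.20 in PC14CDDP). Of the markers of other cell types, COL1A2 and DCN of fibroblasts were above background on none of the 12 arrays. Probes for PTPRC, CD68, COL1A1, CDH5 and VWF were so on all 12, and that for CD3E on 7. PECAM1, an endothelial marker, was above background on 4 of 4 PC14 arrays, 1 of 4 A549 arrays and 0 of 4 PC14CDDP arrays. The part of these markers in the results was not tested. The A549 arrays shared slide 1 and the other 8 shared slide 2, so a difference between A549 and another line and a difference between slides cannot be told apart. PC14 and PC14CDDP lay in different rows of slide 2, so a difference between these lines and a difference between rows cannot be told apart. Each transfection took the same column in every line, so that column and transfection cannot be told apart either.

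More probes were called between lines than between transfections. For PC14CDDP against PC14, limma called 48.7% of the 33714 probes tested and 10 of the 16 family probes (62.5%). Of these 5 were higher in PC14CDDP, where 25.1% of all probes were, and 5 were lower, where 23.5% of all probes were. A549 against PC14 gave 67.4% of all probes (33.1% lower and 34.4% higher in A549) and 12 family probes, with 6 in each direction. A549 against PC14CDDP gave 70.1% of all probes (34.7% lower and 35.5% higher in A549) and 14 family probes, with 7 in each direction. The median absolute log2 difference was 0.62 for the family and 0.41 for all probes tested in the first of these comparisons, 1.27 and 0.66 in the second, and 0.88 and 0.71 in the third. The family probes were above background on all 12 arrays, which many of the 33714 were not. A fit of only the 24609 probes above background on all 12 called 6283 lower and 7782 higher in the first comparison. It called 9308 and 8620 in the second, and 10062 and 8467 in the third. These comparisons share their lines, and the 4 arrays of a line are 4 transfections of the same line, so that p-values measure the spread between those cultures and not between independent lines. No label says that the cultures were grown apart, so this spread may be technical.

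Among the antiapoptotic members, BCL2 had the largest differences between A549 and the other lines. Its probe A_23_P352266 lies at chr18:60790723-60790782 (hg19, minus strand) and is spotted 10 times on each array. A549 gave -4.97 with NC, -5.23 with pre-miR-197, -4.63 with LNA-NC and -5.63 with LNA-miR-197. PC14 gave -1.56, -1.96, -1.51 and -1.72 in the same order. PC14CDDP gave -2.03, -2.15, -2.18 and -2.94. The 3 lines did not overlap, with PC14 highest, PC14CDDP next and A549 lowest. A549 was lower than PC14 (log2 -3.42, SE 0.17, limma adjusted p = 6.7e-07) and lower than PC14CDDP by 6.89-fold (log2 -2.78, SE 0.17, adjusted p = 1.7e-06). These A549 levels were not far above the lowest signals that counted as well above background on its arrays, which lay between -6.14 and -6.09. The normexp background correction gave smaller differences, -1.68 against PC14 and -1.24 against PC14CDDP. PC14CDDP was lower than PC14 by 1.56-fold (log2 -0.64, SE 0.17, adjusted p = 0.0133), a call that was lost without the transfection as a term (adjusted p = 0.0551).

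The other BCL2 probe, A_33_P3355185, lies at chr18:60985401-60985460 and is listed under the transcript of the shorter beta form. A549 gave -3.47 with NC, -3.83 with pre-miR-197, -3.43 with LNA-NC and -3.54 with LNA-miR-197. PC14 gave -1.92, -1.88, -2.16 and -1.89 in that order. PC14CDDP gave -1.88, -1.46, -2.21 and -2.31, so that this line and PC14 overlapped and both lay above A549. A549 was lower than PC14 by 3.04-fold (log2 -1.60, SE 0.18, limma adjusted p = 9.2e-05) and lower than PC14CDDP by the same fold (log2 -1.61, SE 0.18, adjusted p = 8.0e-05). Normexp gave -0.92 and -0.98 for these differences. PC14CDDP and PC14 differed by 0.00 (SE 0.18, 95% interval -0.42 to 0.43, adjusted p = 0.997). The pair of probes thus gave the same order for A549 and a call for PC14CDDP against PC14 in only 1 of the 2.

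BCL2L1, the gene of BCL-XL, ran in the other direction. Its probe A_23_P210886, at chr20:30253324-30253383, gave 0.45, 0.30, 0.38 and 0.04 in A549 with NC, pre-miR-197, LNA-NC and LNA-miR-197. PC14 gave -1.29, -1.22, -1.11 and -1.27. PC14CDDP gave -0.14, -0.77, -0.13 and -1.18, which spans most of the gap between the other lines. A549 was higher than PC14 by 2.86-fold (log2 1.51, SE 0.17, limma adjusted p = 7.2e-05) and higher than PC14CDDP by 1.80-fold (log2 0.85, SE 0.17, adjusted p = 0.00195). PC14CDDP was higher than PC14 by 1.59-fold (log2 0.67, SE 0.17, adjusted p = 0.011), and this call was lost without the NC arrays (log2 0.51, adjusted p = 0.0738) or without the LNA-NC arrays (log2 0.56, adjusted p = 0.0669).

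MCL1, a short-lived antiapoptotic protein, had its highest mean in PC14CDDP. Its probe A_24_P336759, at chr1:150547622-150547681, read 0.90 with NC, 0.93 with pre-miR-197, 1.46 with LNA-NC and 1.17 with LNA-miR-197 in A549. The PC14 arrays lay between 1.28 and 1.80 and those of PC14CDDP between 1.49 and 2.54. Neighbouring lines overlapped. PC14CDDP was higher than A549 by 2.13-fold (A549 minus PC14CDDP -1.09, SE 0.24, limma adjusted p = 0.00327), while A549 and PC14 differed by -0.43 (95% interval -0.97 to 0.12, adjusted p = 0.142). The excess of PC14CDDP over PC14 (log2 0.66, SE 0.24, adjusted p = 0.0475) lost its call without the NC, the pre-miR-197 or the LNA-NC arrays, with adjusted p of 0.156, 0.21 and 0.181.

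The effectors BAX and BAK1 showed different orders of the lines. BAX was highest in A549, whose levels with the 10-spot probe A_23_P208706 (chr19:49464904-49464963) were 3.65 with NC, 3.82 with pre-miR-197, 3.56 with LNA-NC and 3.47 with LNA-miR-197. PC14 gave 2.0, 1.96, 2.08 and 1.70. PC14CDDP gave 2.02, 2.10, 1.92 and 0.79, the last of which stood well below the other 3 arrays of that line. A549 did not overlap with the other lines and was higher than PC14 by 3.22-fold (log2 1.69, SE 0.19, limma adjusted p = 8.1e-05) and higher than PC14CDDP by 3.77-fold (log2 1.91, SE 0.19, adjusted p = 3.3e-05). PC14CDDP and PC14 differed by -0.23 (95% interval -0.66 to 0.21, adjusted p = 0.366). The second probe, A_33_P3341144 (chr19:49464454-49464513), is listed under 1 BAX transcript only, where the first is listed under 4. Its A549 levels lay between -0.55 and -0.47, those of PC14 between -2.80 and -2.51 and those of PC14CDDP between -2.64 and -1.81. By it, A549 was again the highest, by 4.48-fold over PC14 (log2 2.16, SE 0.15, adjusted p = 4.1e-06) and by 3.04-fold over PC14CDDP (log2 1.60, SE 0.15, adjusted p = 2.0e-05). This probe also placed PC14CDDP above PC14 (log2 0.56, SE 0.15, adjusted p = 0.0133), a call lost without the NC, the pre-miR-197 or the LNA-NC arrays (adjusted p = 0.0724, 0.062 and 0.0836).

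BAK1, the other effector, was highest in PC14. Its probe A_23_P145357 (chr6:33540585-33540644) gave 1.00 with NC, 0.81 with pre-miR-197, 0.98 with LNA-NC and 1.29 with LNA-miR-197 in A549. PC14 gave 3.11, 3.1, 3.17 and 3.91. PC14CDDP gave 1.82, 2.04, 1.95 and 2.14. The 3 lines did not overlap. PC14CDDP was lower than PC14 by 2.52-fold (log2 -1.33, SE 0.12, limma adjusted p = 6.7e-05) and A549 was lower than PC14 by 4.92-fold (log2 -2.30, SE 0.12, adjusted p = 1.1e-06). A549 was also lower than PC14CDDP, by 1.95-fold (log2 -0.97, SE 0.12, adjusted p = 0.000155).

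Of the BH3-only members, BIK separated PC14 from its derivative most widely. BIK, which acts at the endoplasmic reticulum, has 1 probe, A_23_P404667, at chr22:43525495-43525554. PC14 gave -0.32 with NC, -0.62 with pre-miR-197, -0.48 with LNA-NC and -0.95 with LNA-miR-197. PC14CDDP gave -2.80, -3.03, -2.77 and -3.58, and A549 gave -2.81, -2.79, -2.68 and -1.64. All 4 PC14 arrays lay above the other 8, and A549 and PC14CDDP overlapped. PC14CDDP was lower than PC14 by 5.47-fold (log2 -2.45, SE 0.31, limma adjusted p = 0.000348), which among the family probes was the largest difference of that comparison. A549 was lower than PC14 by 3.70-fold (log2 -1.89, SE 0.31, adjusted p = 0.000802), and A549 and PC14CDDP differed by 0.57 (95% interval -0.16 to 1.29, adjusted p = 0.14).

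BID, which caspase-8 cleaves to link death receptors to the mitochondrion, was highest in A549 by both of its probes, which lie close together at chr22:18218182-18218241 and chr22:18218265-18218324. A_24_P187948 gave 3.78 to 4.09 in A549, 3.30 to 3.71 in PC14CDDP and 2.51 to 3.15 in PC14, with no overlap between lines. A_33_P3227041 gave 3.83 to 4.02, 3.27 to 3.81 and 2.49 to 3.1 in the same order of lines, also with no overlap. By A_24_P187948 the difference from PC14 was 1.13 in A549 (SE 0.10, limma adjusted p = 2.0e-05) and 0.66 in PC14CDDP (SE 0.10, adjusted p = 0.000856). By A_33_P3227041 it was 1.13 in A549 (SE 0.10, adjusted p = 1.6e-05) and 0.73 in PC14CDDP (SE 0.10, adjusted p = 0.000419). A549 was above PC14CDDP by 0.47 and 0.40 with these probes (SE 0.10 for both, adjusted p = 0.00295 and 0.00551), and quantile normalization raised the second value to 0.62.

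BBC3, or PUMA, a gene that p53 induces, was highest and most variable in A549. Its probe A_23_P382775 (chr19:47724174-47724233) gave 1.82 with NC, 1.25 with pre-miR-197, 2.44 with LNA-NC and 2.88 with LNA-miR-197 in A549. PC14 gave 0.33 to 0.98 and PC14CDDP gave -0.20 to 0.27, so that the 3 lines did not overlap. A549 was higher than PC14 by 2.64-fold (log2 1.40, SE 0.29, limma adjusted p = 0.00261) and higher than PC14CDDP by 3.99-fold (log2 2.0, SE 0.29, adjusted p = 0.00031). PC14CDDP and PC14 differed by -0.60 (95% interval -1.26 to 0.07, adjusted p = 0.124).

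BAD, whose protein binds BCL2 and BCL-XL and is held inactive by phosphorylation, was lowest in A549 by both probes. By A_33_P3262043 (chr11:64037483-64037542) the A549 arrays lay between 1.87 and 1.96, those of PC14 between 2.42 and 2.74 and those of PC14CDDP between 2.58 and 3.04. A_33_P3402076 (chr11:64044428-64044487) is far dimmer and gave -4.77 to -4.32, -4.05 to -3.20 and -4.16 to -3.37. With the first probe A549 differed from PC14 by -0.69 and from PC14CDDP by -0.91 (SE 0.09 for both, limma adjusted p = 0.000161 and 2.7e-05). With the second the differences were -0.89 and -0.85 (SE 0.13 for both, adjusted p = 0.000332 and 0.000412), and normexp reduced them to -0.23 and -0.28. PC14CDDP and PC14 differed by 0.22 (adjusted p = 0.0692) and -0.05 (adjusted p = 0.788).

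BCL2L11 encodes BIM, a BH3-only protein that binds every antiapoptotic member, and its 3 probes gave different orders of the lines. A_24_P122921, at chr2:111925892-111925951, ranged from 0.73 to 1.16 in A549 and from 0.78 to 1.00 in PC14, which overlapped. The PC14CDDP arrays were lower, at 0.06 to 0.30. By this probe PC14CDDP was below PC14 (log2 -0.72, SE 0.10, limma adjusted p = 0.000407) and below A549 (A549 minus PC14CDDP 0.76, SE 0.10, adjusted p = 0.00013). A_33_P3398526, at chr2:111878705-111878764, gave -0.49 to -0.05, -0.23 to 0.31 and -0.89 to 0.30, and PC14CDDP was below PC14 by it (log2 -0.43, SE 0.15, adjusted p = 0.0462), though not without the NC, the pre-miR-197 or the LNA-NC arrays (adjusted p = 0.164, 0.157 and 0.18). A_33_P3251932, at chr2:111886352-111886411, gave -0.40 to 0.34, -0.11 to 1.06 and -0.05 to 1.56. By it A549 was below PC14CDDP (log2 -0.55, SE 0.18, adjusted p = 0.0227), and this call was lost without the NC, the LNA-NC or the LNA-miR-197 arrays (log2 -0.59, -0.55 and -0.32, adjusted p = 0.0616, 0.0776 and 0.0895).

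**Figure D1:**
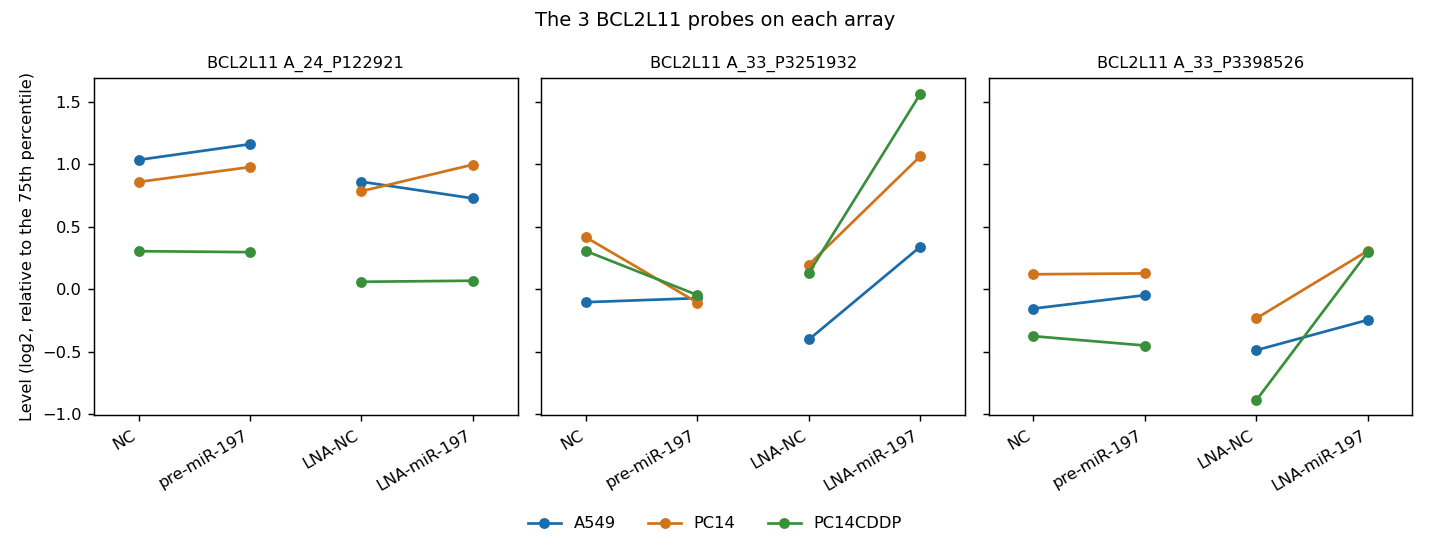
Level of each of the 3 BCL2L11 probes on the 12 arrays (log2, relative to that array's 75th percentile), with a line joining each treated array to its own control in the same cell line. A_33_P3251932 lies higher with LNA-miR-197 than with LNA-NC in all 3 lines, A_33_P3398526 does so by less, and A_24_P122921 stays within 0.21 of its control.

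BCL2L11 was also the one member with a probe past the threshold in a transfection comparison. That probe, A_33_P3251932, is listed under 1 transcript, where A_33_P3398526 is listed under 2 and A_24_P122921 under 4. With probe A_33_P3251932, the LNA-NC arrays read -0.40 in A549, 0.20 in PC14 and 0.13 in PC14CDDP. LNA-miR-197 gave 0.34, 1.06 and 1.56 in the same lines. Each line was higher with LNA-miR-197 than with its control, by 0.74, 0.87 and 1.43, and the groups did not overlap across lines. In the fit the probe rose by 2.02-fold (log2 1.01, SE 0.20, limma adjusted p = 0.0306). It was the only 1 of the 16 family probes called for LNA-miR-197 against LNA-NC (6.25%), where 7.95% of all probes tested were called, 3.92% higher and 4.03% lower. Leaving out A549, PC14 or PC14CDDP ended the call (log2 1.15, 1.09 and 0.80, adjusted p = 0.0802, 0.208 and 0.229), and so did a fit of the compared arrays alone (adjusted p = 0.206), no cell line term (adjusted p = 1.00), the slide as a block (adjusted p = 0.14) and no filter on dim probes (adjusted p = 0.0621). With any line left out or with the compared arrays alone, 0 of all 33714 probes were called. Those losses are therefore not particular to this probe. The neighbouring probe A_33_P3398526 differed by 0.24, 0.54 and 1.18 in A549, PC14 and PC14CDDP (mean 0.66, SE 0.18, adjusted p = 0.0608), and A_24_P122921 by -0.13, 0.21 and 0.01 (mean 0.03, SE 0.11, 95% interval -0.22 to 0.28, adjusted p = 0.893).

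None of the other family probes passed the threshold after LNA-miR-197, but 7 of 16 had an unadjusted p under 0.05, against 9261 of 33714 probes in all. BCL2 A_23_P352266 differed from LNA-NC by -1.0 in A549, -0.20 in PC14 and -0.76 in PC14CDDP (mean -0.65, SE 0.19, limma adjusted p = 0.0754), and it passed when only probes above background on all 12 arrays were tested (adjusted p = 0.0378). Normexp gave a mean of -0.31. BCL2 A_33_P3355185 differed by -0.11, 0.27 and -0.10 (mean 0.02, SE 0.21, 95% interval -0.47 to 0.51, adjusted p = 0.966), so the 2 BCL2 probes did not move alike. BAK1 was higher with LNA-miR-197 in each line, by 0.31, 0.74 and 0.19 (mean 0.41, adjusted p = 0.112).

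A single array, that of PC14CDDP with LNA-miR-197, carried several of the lowest levels of that line. On it BAX A_23_P208706 differed from the LNA-NC array of that line by -1.14, BCL2L1 by -1.04 and MCL1 by -1.02, where the same probes differed by -0.37 to 0.22 in A549 and PC14. The repeated spots of BAX on this array had an SD of 0.054 and those of BCL2L1 an SD of 0.043, so these shifts exceeded the error within the array, which says nothing about the spread between cultures. Of all arrays it had the lowest 75th percentile (613.5) and the lowest share of probes well above background (55.8%). It also gave the largest of the 3 differences of BCL2L11 A_33_P3251932 from LNA-NC, 1.43. The part of array quality in these values was not tested. This was also the array on which ratios to the control spread most over all probes, with an SD of 0.77 against 0.60 in A549 and 0.52 in PC14. There 7.18% of all probes were lower and 7.09% higher than the control by at least 2-fold, and of the family probes 3 were lower and 2 higher. BIK went in opposite directions, with 1.04 in A549, -0.47 in PC14 and -0.81 in PC14CDDP.

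**Figure D2:**
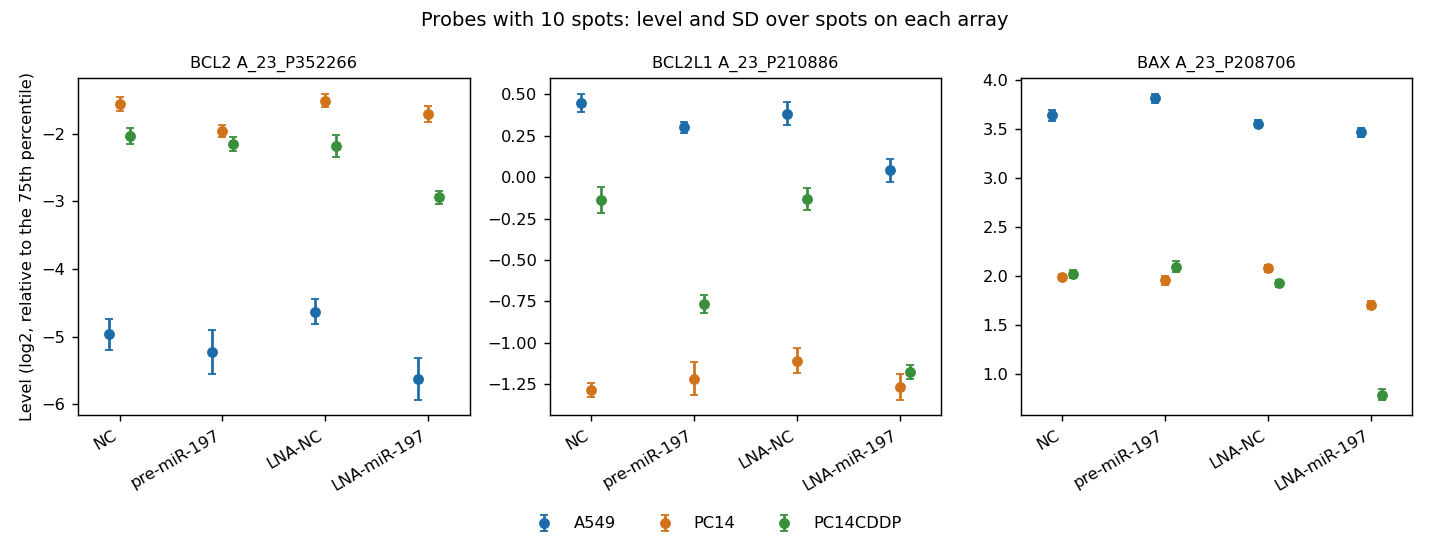
Level (log2, relative to the 75th percentile) of the 3 family probes that are spotted 10 times, for each transfection and line; bars are the SD over the spots of an array, which covers error within the array only. BAX lies at 0.79 in PC14CDDP with LNA-miR-197 and between 1.92 and 2.10 on the other arrays of that line, while the bars of BCL2 are widest in A549, where it is dimmest.

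After pre-miR-197 no family probe passed the threshold. Of the 16 probes 0 were called by limma for pre-miR-197 against NC, where 0.0801% of all probes (27) were called, 0.0504% lower and 0.0297% higher. An unadjusted p under 0.05 was found for 3 of the 16 and for 5374 of the 33714 probes in all. The methods' t-test after adjustment called 0 of all 33714 probes. The 3 probes were 1 of BAD and both of BID. BAD A_33_P3402076 differed by -0.27 in A549, -0.86 in PC14 and -0.65 in PC14CDDP (mean -0.59, SE 0.15, limma adjusted p = 0.136). BID A_24_P187948 differed by 0.31, 0.43 and 0.22 (mean 0.32, SE 0.12, adjusted p = 0.243), and BID A_33_P3227041 by 0.19, 0.44 and 0.36 (mean 0.33, SE 0.11, adjusted p = 0.218). BCL2 A_23_P352266 differed by -0.26, -0.40 and -0.12 (mean -0.26, SE 0.19, 95% interval -0.71 to 0.19, adjusted p = 0.557). BCL2 A_33_P3355185 differed by -0.36, 0.04 and 0.42 (mean 0.03, SE 0.21, 95% interval -0.46 to 0.52, adjusted p = 0.961). For neither BCL2 probe was a change detectable with 3 pairs of arrays, and the lower ends of the intervals allow a decrease of up to 0.71 and 0.46 on the log2 scale.

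**Figure D3:**
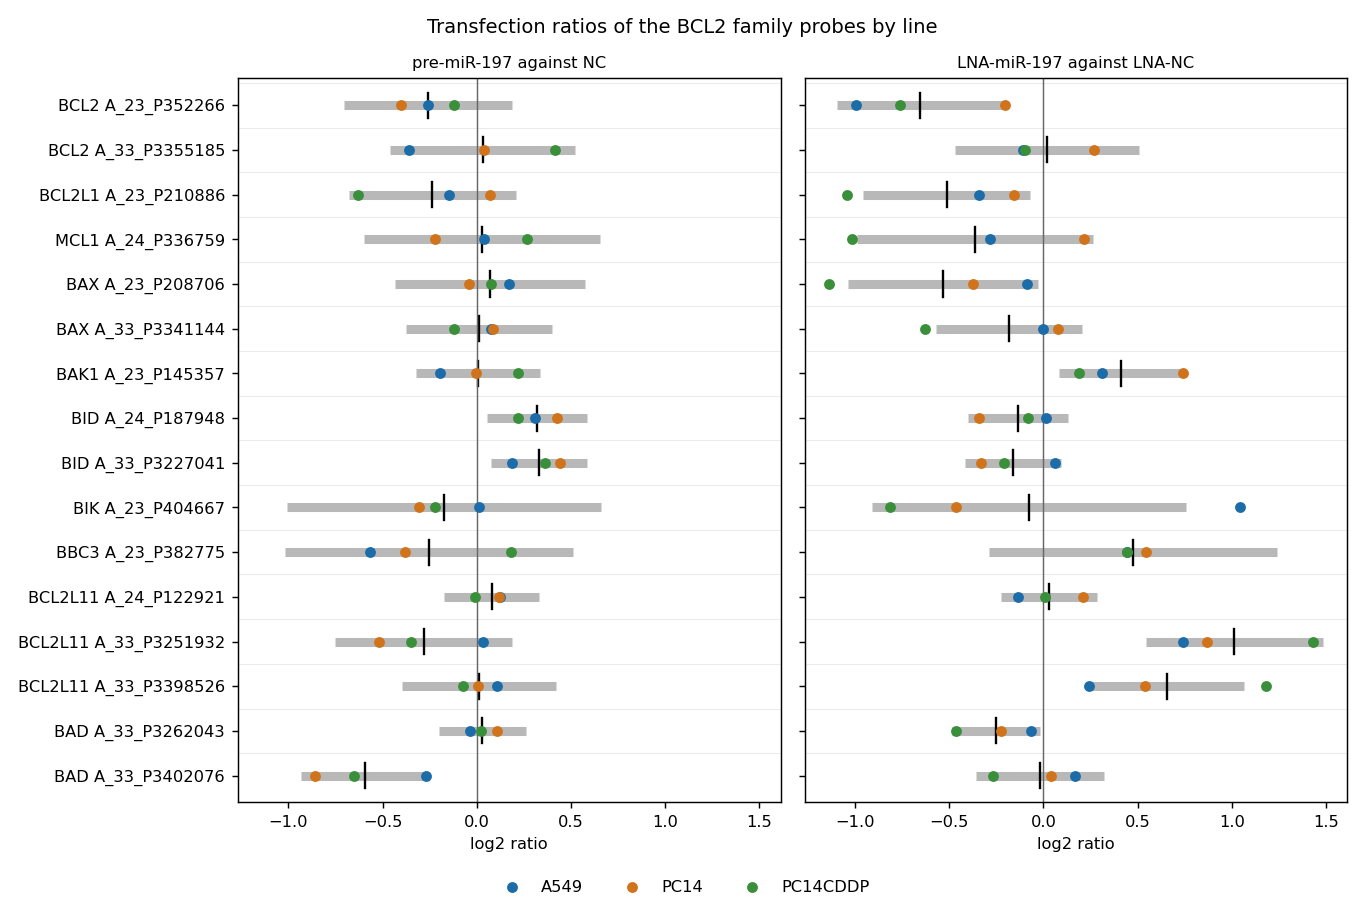
Log2 ratio of each family probe to its control in each line (points), with the limma estimate (black tick) and its 95% interval (grey bar); pre-miR-197 against NC on the left and LNA-miR-197 against LNA-NC on the right. BCL2L11 A_33_P3251932 on the right is the only probe called in either panel, and BIK on the right has A549 at 1.04 and PC14CDDP at -0.81.

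The difference between the effect of pre-miR-197 and that of LNA-miR-197 asks whether supplying and blocking the miRNA moved a probe apart. Of the family probes 0 of 16 were called by limma, against 0.0504% of all probes (17), 0.0326% with a negative and 0.0178% with a positive value. An unadjusted p under 0.05 was found for 5 of the 16 and for 6227 of the 33714 probes in all. BCL2L11 A_33_P3251932 had the largest value, -1.29 (SE 0.29, adjusted p = 0.1). Both BID probes had positive values, 0.45 and 0.49 (SE 0.16 for both, adjusted p = 0.2 and 0.166). BCL2 A_23_P352266 had 0.39 (SE 0.27, 95% interval -0.24 to 1.02, adjusted p = 0.479), which became 0.22 without A549, 0.69 without PC14 and 0.11 with normexp. BCL2 A_33_P3355185 had 0.01 (SE 0.30, 95% interval -0.68 to 0.71, adjusted p = 0.987), which became -0.24 without PC14CDDP.

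LNA-NC against NC sets the control transfections against each other. These differ in both oligonucleotide and array column, so the comparison does not measure the spread between like transfections. The comparison shares the NC arrays with that of pre-miR-197 and the LNA-NC arrays with that of LNA-miR-197. It called 0 of the 16 family probes by limma, against 0.451% of all probes (152), 0.125% lower and 0.326% higher with LNA-NC. An unadjusted p under 0.05 was found for 0 of the 16 and for 4441 of the 33714 probes in all, and the methods' t-test after adjustment called 0 of all 33714. BCL2L11 A_33_P3251932 was lower with LNA-NC than with NC in each line, by values of -0.30, -0.22 and -0.17 (mean -0.23, SE 0.20, limma adjusted p = 0.697), and A_33_P3398526 by -0.33, -0.35 and -0.51 (mean -0.40, SE 0.18, adjusted p = 0.392). These are the LNA-NC arrays against which LNA-miR-197 was compared, and their part in the higher BCL2L11 values there was not tested. BCL2 A_23_P352266 differed by 0.34, 0.05 and -0.15 in A549, PC14 and PC14CDDP (mean 0.08, SE 0.19, 95% interval -0.37 to 0.52, limma adjusted p = 0.906). BCL2 A_33_P3355185 differed by 0.04, -0.24 and -0.33 (mean -0.18, SE 0.21, 95% interval -0.67 to 0.31, adjusted p = 0.786). The median absolute difference of the family was 0.09 here, 0.13 for pre-miR-197 against NC and 0.31 for LNA-miR-197 against LNA-NC, beside 0.16, 0.18 and 0.24 over all probes tested.

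Genes around the family were counted with 1 probe each, the brightest, over lists of other BCL2 relatives, caspases and the apoptosome, inhibitor of apoptosis proteins, death receptors, mitochondrial partners and regulators, and 49 of 51 could be tested. In PC14CDDP 22 of the 49 were higher and 13 lower than in PC14, where 48.7% of all probes were called. All 9 genes of the apoptosome and caspase list were called in that comparison, 7 higher and 2 lower, led by CASP10, a death receptor caspase (log2 -2.39, SE 0.25, limma adjusted p = 0.000131). The leading genes of the other lists were BMF, a BH3-only relative (log2 2.14, SE 0.26, adjusted p = 0.000265, and 0.73 with normexp), DDIT3, the stress factor CHOP (log2 1.83, SE 0.36, adjusted p = 0.00323), TNFRSF1A, the TNF receptor (log2 -1.66, SE 0.12, adjusted p = 1.5e-05), BIRC6, a large ubiquitin ligase (log2 -0.80, SE 0.11, adjusted p = 0.000525), and VDAC3, a channel of the outer membrane (log2 -0.27, SE 0.08, adjusted p = 0.0206). DDIT3 lost its call without the transfection as a term (adjusted p = 0.0781), and so did VDAC3 (adjusted p = 0.054), which also lost it without NC, pre-miR-197 or LNA-NC (adjusted p = 0.0913, 0.0921 and 0.071). A549 had 19 of the 49 higher and 16 lower than PC14, where 67.4% of all probes were called, and 18 higher and 19 lower than PC14CDDP, where 70.1% were. BIRC3, an inhibitor of apoptosis that NF-kappaB induces, was the gene with the largest difference in both (log2 3.88 and 4.68, SE 0.29 for both, adjusted p = 7.7e-06 and 2.2e-06), and FAS, the death receptor, followed (log2 3.62 and 3.56, SE 0.22 for both, adjusted p = 2.3e-06 and 2.1e-06).

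Other leading genes of A549 against PC14 were BMF (log2 2.55, SE 0.26, limma adjusted p = 4.5e-05, and 0.99 with normexp), whose probe was not well above background on every array, CASP8, the initiator caspase of death receptors (log2 1.82, SE 0.12, adjusted p = 3.8e-06), FOXO3, a factor that induces BCL2L11 (log2 -1.86, SE 0.13, adjusted p = 4.8e-06), and ENDOG, a mitochondrial nuclease (log2 -0.93, SE 0.16, adjusted p = 0.0011). In A549 against PC14CDDP they included FOXO3 again (log2 -2.19, SE 0.13, adjusted p = 1.6e-06), BCL2A1, an antiapoptotic relative (log2 1.92, SE 0.11, adjusted p = 1.3e-06), and VDAC1 (log2 0.73, SE 0.15, adjusted p = 0.00207), whose call was lost without the transfection as a term (adjusted p = 0.183). After LNA-miR-197, 4 of the 49 genes rose and 2 fell, where 7.95% of all probes were called. PMAIP1, also called NOXA, a BH3-only protein, rose by 0.75 (SE 0.15, adjusted p = 0.0315). USP9X, which removes ubiquitin from MCL1, fell by 0.97 on the log2 scale (SE 0.16, adjusted p = 0.0206), and BIRC6 fell by 0.58 (SE 0.13, adjusted p = 0.0356). After pre-miR-197 VDAC1, a channel that BCL2 proteins bind, fell by 1.52 on the log2 scale (SE 0.17, adjusted p = 0.0362), and the other 48 were not called. With any 1 of the lines left out, 0 of the 49 were called in either of these transfection comparisons, where 0 of all 33714 probes were called. For LNA-NC against NC and for the difference between the effects 0 of 49 were called.

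The genes whose levels followed a member most closely over the 12 arrays were described by Pearson's r, in which the 3 lines weigh most because the arrays of a line resemble each other. For BCL2 the probe with the higher mean over the 12 arrays, A_33_P3355185, was used. Its closest genes were TARDBP, an RNA-binding protein (r = 0.985), XLOC_013256, a noncoding transcript (r = 0.984), and GNL1, a GTPase (r = 0.984). For BIK they were DMKN (r = 0.981), MAPK8IP2 (r = 0.978) and C11orf20 (r = 0.978). For BAK1 they were C11orf68 (r = 0.989), a probe without a gene name, A_33_P3376781 (r = 0.984), and LEPRE1 (r = 0.983). BIK and BAK1 were taken because, over the brightest probe of each of the 10 members, the means of the 3 lines ranged most widely for them, by 2.45 and 2.30 on the log2 scale. The other BCL2 probe, A_23_P352266, was not ranked and differed more than either between A549 and PC14 (log2 -3.42).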

How the data were processed

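The arrays were Agilent SurePrint G3 Human GE v2 8x60K arrays, labelled with 1 dye from 100 ng of total RNA. The authors deposited, per the file headers, Feature Extraction 10.7.3.1 output with the mean intensity, the local background intensity and a processed signal for each spot, and a value table whose intensity values match the processed signal on all 62976 spots of every array, so that no scaling between arrays had been done in it. How the authors normalized the arrays is not given in the sources used here. Genome positions (hg19) come from the scanner output. The RefSeq table (GRCh38.p14) gave the same symbol as the files for 15 of the 16 family probes.

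Control and outlier spots were left out, processed signals were put on the log2 scale, each array's 75th percentile was subtracted, and spots of a probe were averaged. Of 50599 probes, 106 with a missing value were left out and the 33714 that 3 or more of the 12 arrays placed well above background were tested. A single model of all 12 arrays was fitted in limma 3.58.1 (R 4.3.3), with terms for transfection and for line, moderated by eBayes, and p-values were adjusted over all probes tested (Benjamini-Hochberg, called under 0.05). The line pairs treated and control arrays: deviations from the transfection means correlated over probes with r from 0.845 to 0.947 between arrays of the same line and from -0.756 to 0.121 between arrays of different lines. In the scanner output the number of arrays limits the precision, and the median SD between repeated spots was 0.071 to 0.080 on the log2 scale. limma was tested on simulated data. The family and the gene lists were chosen with earlier results of these data known. All family probes were accounted for. Full statistics were given for those called and for both BCL2 probes, for the leading gene of each list among those called (some leading genes are not reported here), and likeness for BCL2 and the 2 members whose brightest probe had the widest range of line means. Alternatives were quantile normalization, normexp (offset 50) on the mean and background intensities, the deposited table, no filter, a filter on all 12 arrays, 1 probe per gene name, only the arrays compared, no cell line or transfection term, the slide as a block, each line or transfection left out, and the methods' t-test (Student's). No columns were left unassigned (0). Tables and plots were made in Python 3.11.15 (matplotlib 3.10.9, numpy 2.4.6, pandas 2.3.3).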

Additional observations from a re-analysis of the deposited data

Results flagged for a closer look

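In 6 of 48 groups of 4 arrays (16 probes in 3 lines), 1 array stood far from the other 3. The rule flags about 1 group in 20 for 4 independent values of the same kind. Here the 4 arrays are 4 transfections and the probes share arrays, so that rate does not apply. The share over all probes was not computed, so the count shows nothing particular to the family. Of the LNA-miR-197 arrays, BAK1 A_23_P145357 in PC14 was at 3.91 against 3.1 to 3.17 on the other arrays, BAX A_23_P208706 in PC14CDDP at 0.79 against 1.92 to 2.10, and BCL2 A_23_P352266 in PC14CDDP at -2.94 against -2.18 to -2.03. BIK A_23_P404667 in A549 was at -1.64 with LNA-miR-197 and at -2.81 to -2.68 on the other arrays. BCL2 A_33_P3355185 in PC14 was at -2.16 with LNA-NC against -1.92 to -1.88. BAX A_33_P3341144 in A549 was at -0.55 with NC against -0.48 to -0.47, a gap far smaller than the others.

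Lines moved in opposite directions by at least 1.2-fold in 3 of 48 pairs of probe and comparison. The share over all probes was not computed, so this count cannot be called high or low. With LNA-miR-197, BIK A_23_P404667 was higher than LNA-NC by 1.04 in A549 and lower in PC14CDDP (-0.81), which is 1.86 apart. With pre-miR-197, BCL2 A_33_P3355185 was at -0.36 in A549 and 0.42 in PC14CDDP relative to NC, 0.78 apart. For LNA-NC against NC, BBC3 A_23_P382775 was at 0.62 in A549 and -0.64 in PC14, 1.27 apart. With 1 array for each transfection of a line, these differences between lines were not tested.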

How the results depend on the processing

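Of 620 values of member probes under the alternatives, 573 kept their direction and their side of the threshold, 39 lost the call, 1 gained it and 7 changed sign. For the leading pathway genes, 268 of 320 were kept and 52 lost the call. These counts do not measure how robust the results are. The deposited table equals the processed signal, so it could only repeat the main result. The filters, the choice of block and the fit of the arrays compared alone changed p-values but not log2 differences. A BCL2 probe that was not called counts as kept if it stays uncalled with the same sign. For pre-miR-197 against NC 27 probes were called, and the count was 74 with quantile normalization, 633 with normexp, 3 with no filter, 571 with the filter on all 12 arrays, 54 with 1 probe per gene name, 570 with the methods' t-test unadjusted, and 0 with the arrays compared alone, the slide as a block, no replicate block (the cell line left out of the fit), the methods' t-test adjusted or any line left out (0 to 0). For LNA-miR-197 against LNA-NC the count of 2680 became 4320 with normexp, 578 with no filter, 4294 with the filter on all 12 arrays, 5 with the slide as a block, 3 with no block, 1049 with the t-test unadjusted, and 0 with the arrays compared alone, the t-test adjusted or any line left out. The 1 family probe called there became 2 with normexp and 3 with the filter on all 12 arrays, and 0 with no filter, the arrays compared alone, no block, the slide as a block, either t-test or any line left out. With 1 probe per gene name it was also 0, but that setting keeps the brightest BCL2L11 probe, A_24_P122921. The called probe, A_33_P3251932, was thus not tested in it. For the difference between the effects the 17 probes became 862 with normexp, 745 with the filter on all 12 arrays, 27 with 1 probe per gene name, and 0 with no filter, no block, the slide as a block or any line left out, and the family count of 0 became 1 with normexp and 1 with the filter on all 12 arrays. The t-test and the fit of the arrays compared alone were not run for this difference. For LNA-NC against NC the 152 probes became 99 with no filter, 6 with no block, 47 with the slide as a block, 983 with the t-test unadjusted, 0 with the arrays compared alone or the t-test adjusted, and 0 to 3 with a line left out. For PC14CDDP against PC14 the t-test adjusted called 10806 probes instead of 16408, and the 10 family probes became 6 with 1 probe per gene name, 5 with the t-test adjusted, and 6 without NC or without LNA-NC. For A549 against PC14CDDP the 14 family probes became 9 with 1 probe per gene name. In both comparisons that setting tests only 10 of the 16 family probes.

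The filter changed how many probes shared the adjustment. For the other alternatives the cause was not tested. For the difference between the effects, the filter on all 12 arrays gave 359 lower and 386 higher calls in place of 11 and 6. Without a filter the median difference of all probes was 0.15 for PC14CDDP against PC14 and -0.10 for A549 against PC14CDDP, which was -0.08 with the filter on all 12 arrays. Sign changes concerned values near 0. For BCL2 A_33_P3355185 the difference between the effects became -0.047 with quantile normalization. With each line left out in turn, this probe ranged from -0.16 (without PC14CDDP) to 0.23 after pre-miR-197, from -0.10 (without PC14) to 0.084 after LNA-miR-197, and from -0.24 (without PC14CDDP) to 0.14 for the difference between the effects. With each transfection left out, its PC14CDDP against PC14 value ranged from -0.14 (without pre-miR-197) to 0.14, and was -0.01 without NC. BCL2 A_23_P352266 ranged from -0.050 (without A549) to 0.19 for LNA-NC against NC. With 1 array for each transfection of a line the precision rests on 3 pairs of arrays, and BCL2 in A549 was close to background.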
